A study of Polypedilum vanderplanki with 84 samples.

Results

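The genes described here were 150 genes of the Pv11 cell line whose mRNA level peaked 12 or 24 h after dried cells were put back into medium. Pv11 is a cultured cell line of *Polypedilum vanderplanki*, the sleeping chironomid, and 84 RNA-seq libraries of it were measured in 2 experiments with 3 libraries per group. In the time course of 30 libraries, cells were kept in trehalose medium for 0, 12, 24, 36 or 48 h (PreCondTre), dried and stored, and then rehydrated for 0, 3, 12, 24 or 72 h (Rehydration). In the stress experiment of 54 libraries, hydrated cells were sampled 1, 3 and 24 h after a heat shock of 42 °C for 15 min, in 20 µM paraquat, in 600 mM trehalose, in NaCl, in 600 mM mannitol or without stress (Control). All groups are 1 cell line, so the values say nothing of other cells of the midge, and the experiments were made as separate studies, so levels were compared within each of them only.

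Values are TPM, the share of a library's RNA held by a transcript on a scale with a fixed total, added up over the transcripts of a gene. The genes were chosen by their time-course values. A gene entered the list if its mean over the 84 libraries was above 1 TPM, if its level plus 1 at Heat 1 h was less than 2 times that of Control 1 h, and if the highest of its 10 time-course group means was at Rehydration 12 h or 24 h. The genes were then ranked by R, the highest group mean plus 1 over the lowest group mean plus 1, and the 150 with the largest R were kept. Of the 18248 genes in the table, the 17156 with an identifier of the letter g and a number were considered, and g16168 to g16208, g3611, g7210, g5893, g11889 and g7775 were left out by the rule. Of the rest, 8783 passed the filters on level and heat. Of these, 4262 (48.5%) peaked at Rehydration 12 or 24 h and 1999 of those had an R of at least 3. The time-course values below therefore describe how the genes were chosen and were not tested. The stress libraries entered the choice only through the overall mean and, for Heat 1 h and Control 1 h, the limit on the heat response. The file gives genes by number only and none of the identifiers was paired with a name, so no function could be assigned to any of them and no marker gene of the cell line could be looked up.

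Anhydrobiosis is the ability to lose nearly all body water and return to life when wetted. Pv11 cells survive drying if they are first held in concentrated trehalose, a disaccharide that protects membranes and proteins and forms a glass as water leaves. Rehydration is known as a period of repair, in which cells restore damaged DNA and proteins before growth resumes.

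Some libraries did not look like the rest of their group. For each library, the log2 levels of 9450 genes were centred on the experiment's mean and correlated with those of every other library, as a description across genes. A library's own group was the closest on average for 25 of 30 time-course libraries and 37 of 54 stress libraries. PreCondTre 12 h replicate 3 was closer to PreCondTre 24 h (mean r = 0.77) than to its own group (0.45), and PreCondTre 36 h replicate 3 was closer to PreCondTre 48 h (0.75) than to its own group (0.35). The other PreCondTre 36 h libraries were also closer to PreCondTre 24 h (0.82 and 0.84) than to their own group (0.62 and 0.63), and Rehydration 12 h replicate 1 was marginally closer to Rehydration 24 h. In the stress experiment, Paraquat 24 h replicate 1 (0.69) and Heat 24 h replicate 3 (0.76) were closest to Control 24 h. All 3 libraries of Control 3 h, the reference of every 3 h comparison, were closer to a paraquat or heat group (0.59 to 0.73) than to each other (0.33 to 0.57). All 3 of Trehalose 1 h and all 3 of Heat 24 h were likewise closest to another group, as were 2 of 3 Control 1 h libraries and single libraries of NaCl 1 h, Mannitol 1, 3 and 24 h, Paraquat 3 h and Paraquat 24 h. The labels were kept, and the main counts that a single library moved by over 1.5 times are given with and without it.

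Levels of the 150 genes were low in trehalose, mostly below the start in dried cells and high late after wetting. The genes together held 0.384% ± 0.0527 of all TPM at PreCondTre 0 h (SD, n = 3), 0.185% ± 0.0004 at PreCondTre 24 h and 0.266% ± 0.0066 at Rehydration 0 h. Their share was 0.395% ± 0.0391 at Rehydration 3 h, 1.17% ± 0.0944 at 12 h, 1.35% ± 0.0580 at 24 h and 0.992% ± 0.0575 at 72 h. Relative to PreCondTre 0 h, the median gene stood at 0.301 at PreCondTre 24 h, at 0.758 at Rehydration 0 h, at 2.84 at Rehydration 12 h and at 3.03 at Rehydration 24 h. For all 8783 genes these medians were 0.870, 1.07, 1.69 and 1.63, so the typical gene moved the same way in these units by less. The median ratio factor of a library, the median over genes of its TPM relative to the other libraries, ran from 0.774 to 0.825 at PreCondTre 24 h and from 1.58 to 1.71 at Rehydration 12 and 24 h. After scaling by them 121 of the 150 genes still had their peak at Rehydration 12 or 24 h with an R of at least 3, and the median R of a list chosen again was 6.65 in place of 12.2. After 24 h of trehalose 120 of the 150 were more than 2 times below their starting level, against 14.9% of the 8783 genes. Few of them differed across drying, since 9 were more than 2 times higher and 6 more than 2 times lower at Rehydration 0 h than at PreCondTre 48 h (2.40% and 4.45% of the 8783 genes). Between PreCondTre 24 and 48 h 72 of them came back by more than 2 times (11.9%) and 3 went lower by as much (0.569%). In such bulk libraries a lower level in every cell and fewer cells with the transcript cannot be told apart.

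**Figure D1:**
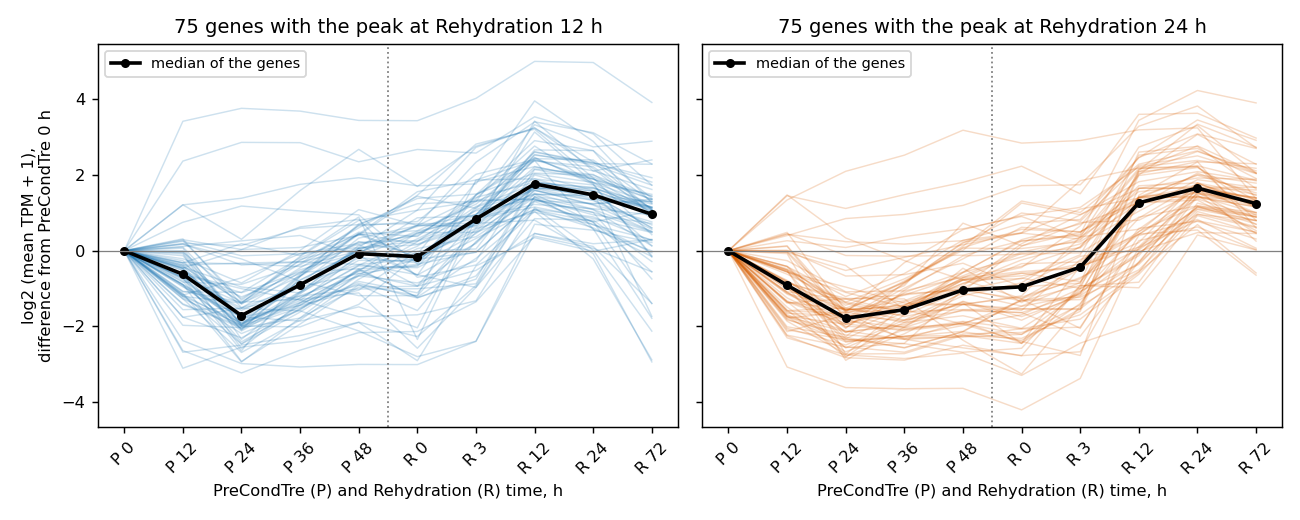
Each thin line is 1 gene, plotted as the difference of log2 (mean TPM + 1) from PreCondTre 0 h over the 10 groups of the time course (n = 3 libraries each), for the 75 genes that peaked at Rehydration 12 h (left) and the 75 that peaked at 24 h (right). The black line is the median, and the dotted line marks drying; with all libraries both medians are lowest at PreCondTre 24 h, and both cross the starting level only after Rehydration 0 h.

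The lowest level of most genes lay 24 or 36 h into preconditioning rather than at its end or in dry cells. The lowest group mean was at PreCondTre 24 h for 91 genes, at PreCondTre 36 h for 19, at PreCondTre 48 h for 4 and at Rehydration 0 h for 15. Of the 8783 genes these groups were lowest for 2682, 606, 210 and 1299, so PreCondTre 24 h was the most common there too. The order within the list turned on the 2 preconditioning libraries that stood apart. Without PreCondTre 12 h replicate 3 and PreCondTre 36 h replicate 3 the lowest mean was at PreCondTre 24 h for 41 genes and at PreCondTre 36 h for 71. The same libraries set the apparent course in between. The median ratio to PreCondTre 0 h was 0.586 at PreCondTre 12 h and 0.417 at 36 h with them, and 0.717 and 0.304 without them. By single library, the median was 0.699, 0.728 and 0.336 at PreCondTre 12 h and 0.307, 0.290 and 0.669 at PreCondTre 36 h.

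Most of the increase came after the first 3 h of rehydration. At Rehydration 3 h 40 of the 150 were more than 2 times higher than at 0 h (8.43% of the 8783 genes), and at 12 h 89 were more than 2 times higher than at 3 h (10.8%). None was more than 2 times lower across either step, against 0.512% and 1.92% of the 8783 genes. At 24 h 24 genes were more than 2 times above their 12 h level (1.17%) and 8 more than 2 times below it (0.706%). At 72 h 50 genes were more than 2 times below their peak (16.8%) and 34 were more than 2 times below their 24 h level (3.70%). The 16.8% is a share of all 8783 genes, of which 1472 peaked at 72 h and could not pass. In the same cells 83 genes were more than 2 times above PreCondTre 0 h (20.2%) and 7 more than 2 times below it (3.37%). All 6 libraries of Rehydration 12 and 24 h lay above all 15 preconditioning libraries for 108 genes (42.5%).

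Peak time divided the list evenly, with 75 genes at each time, while 2626 of the 8783 genes peaked at 12 h and 1636 at 24 h. Of the genes that peaked at 12 h, 29 were more than 2 times higher at Rehydration 3 h than at 0 h, against 11 of those that peaked at 24 h. At 72 h the median gene of the 12 h peak stood at 0.493 of its peak, against 0.745 for the genes that peaked at 24 h. The peak time is part of the rule, so these values are a description.

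Among the genes with the largest R, the most abundant was g16278, which reached the highest level of the list. Its libraries read 405, 542 and 424 TPM at PreCondTre 0 h, 123, 108 and 124 TPM at PreCondTre 48 h and 66.2, 71.2 and 61.7 TPM at Rehydration 3 h. They then read 1560, 1062 and 1154 TPM at Rehydration 12 h, 2019.8, 2437 and 2503 TPM at 24 h and 2132, 2497 and 2100.2 TPM at 72 h. Its mean was 457 TPM at PreCondTre 0 h and 459 TPM at 12 h and was lower in each later group down to 66.4 TPM at Rehydration 3 h, and its 24 h and 72 h libraries overlapped. Its R was 34.4, and after median ratio scaling its highest mean was at Rehydration 72 h.

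The gene g16422 (R 31.8) had another course, since it was already high in trehalose. Its level was 36.4, 35.6 and 35.5 TPM at PreCondTre 0 h and 505, 497 and 488 TPM at PreCondTre 24 h. It stayed at 405, 403 and 379 TPM at Rehydration 0 h and reached 1212, 1137 and 1167 TPM at 12 h, and it was at 590, 557 and 511 TPM at 72 h. Its groups did not overlap between these times. In all, 6 of the 150 genes were more than 2 times higher at PreCondTre 24 h than at 0 h, close to the share among the 8783 genes (5.23%).

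Other genes were low in dried cells and high late in rehydration. The gene g3183 (R 25.6) was at 5.23, 2.98 and 5.01 TPM at PreCondTre 0 h, at 0.84, 0.90 and 0.85 TPM at Rehydration 0 h, at 1.27, 0.65 and 0.70 TPM at 3 h and at 32.6, 46.9 and 53.5 TPM at 24 h. The gene g970 (R 24.8) was higher earlier, going from 6.21, 5.36 and 4.31 TPM at PreCondTre 0 h and 0.64, 0.57 and 0.40 TPM at Rehydration 0 h to 6.98, 16.4 and 10.1 TPM at 3 h and 45.6, 27.7 and 38.1 TPM at 12 h. In both, no library of the peak overlapped those of Rehydration 0 h. The gene g3663 (R 25.6) instead returned to where it began: it was at 48.2, 40.5 and 52.5 TPM at PreCondTre 0 h, at 1.50, 1.74 and 1.61 TPM at Rehydration 0 h and at 52.1, 68.2 and 77.4 TPM at Rehydration 24 h. After median ratio scaling its highest mean was at PreCondTre 0 h. Its starting and peak libraries overlapped, as did those of 8 genes in all, since the 3 peak libraries lay above the 3 of PreCondTre 0 h for 142 genes (87.5% of the 8783 genes). Of the 8783 genes, 447 peaked at PreCondTre 0 h itself and could not pass, so the shares are not fully alike.

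**Figure D2:**
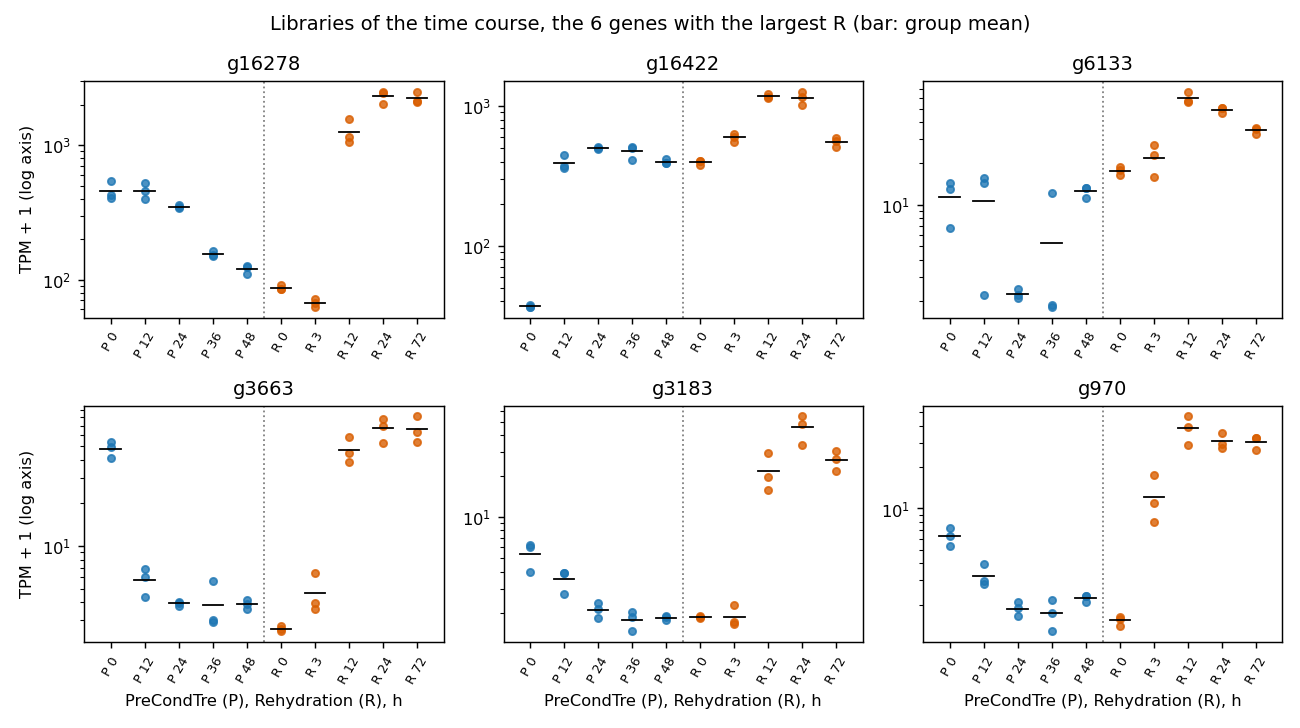
TPM + 1 on a log axis for each library of the time course (points, blue for PreCondTre and orange for Rehydration) and the group mean (bar) of the 6 genes with the largest R. g6133 shows 1 library at 1.23 TPM among 3 at PreCondTre 12 h and 1 at 11.2 TPM among 3 at PreCondTre 36 h, while the Rehydration 12 and 24 h libraries of all 6 genes lie far above those of Rehydration 0 h.

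The remaining genes among the 10 with the largest R were g6133 (26.4), g5902 (24.3), g17045 (24.0), g6130 (23.1) and g4409 (22.3). At Rehydration 12 h g5902 was at 608, 634 and 598 TPM, against 22.4, 23.9 and 26.5 TPM at PreCondTre 24 h. The genes g115 and g1226 completed the 5 with the highest peaks, at a mean of 674 and 609 TPM at Rehydration 24 h. The median peak of the list was 32.4 TPM, from 9.51 to 2320.0 TPM, and the median coefficient of variation of the peak group was 11.5%. At the end of the list, g254 (R 9.22) and g10510 (R 9.21) were the last inside, and g2362 (R 9.16) and g8386 (R 9.11) the first outside.

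Many genes of the list shared a second pattern, which followed single libraries and not groups. The gene g6133 was at 17.1, 2.20 and 17.9 TPM in the libraries of NaCl 1 h, at 17.9, 3.07 and 2.80 TPM in Mannitol 1 h and at 18.5, 3.14 and 16.9 TPM in Trehalose 1 h. In Control 3 h it was at 3.68, 24.7 and 12.7 TPM. The osmolyte groups at 1 h thus overlapped each other while libraries of 1 group differed several-fold, and g6133 was called in none of the 17 comparisons. In g5902, at much higher levels, the same libraries were the low ones: 161, 41.8 and 175 TPM in NaCl 1 h and 170, 55.3 and 55.2 TPM in Mannitol 1 h.

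The extent of this pattern was measured as the correlation of each gene's deviations from its group means with those of g6133, which was chosen for this after its values were seen. Over the 54 stress libraries 73 of the other 149 genes of the list (49.0%) had a Pearson r above 0.8, against 26.5% of all genes tested. Over the 30 time-course libraries 62 of 149 did (41.6%, against 20.2%). Of the 74 genes past this limit in the stress libraries, g6133 included, 59 were past it in both experiments. The time-course values chose these genes, g6133 among them, so the time-course share and the count in both experiments are a description only. The deviation of g6133 also went with the level of the typical gene in the library, with an r of 0.87 (54 libraries) and 0.90 (30 libraries) to the log2 median ratio factor. The points of these correlations share their libraries, and what makes the libraries differ was not tested. The gene g16422 went the other way, with an r of -0.66 in the stress libraries, and g943 (0.42) and g16278 (0.26) were little tied to it.

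The stress experiment was then used to test the genes in other libraries. Its libraries were not wholly apart from the rule, which used them in the overall mean and used Heat 1 h over Control 1 h, and Control 1 h is the reference of every 1 h comparison. The rule also favoured genes that were low in the trehalose medium of the time course, since R divides by the lowest group mean. That mean was at PreCondTre 24 h for 91 of the 150 genes. Comparisons with trehalose are therefore tied to the choice, and an excess of falls there is not independent of it. Limma set each group against its time-matched Control on log2 (TPM + 1) over all 9450 genes with a mean above 1 TPM, and a gene was called at an adjusted p under 0.05 and a fold above 2. These libraries were described as replicates of 1 cell line, so p-values measure the spread between such cultures. TPM is a share, and the median gene was not at 0 in every comparison, for reasons that were not tested. It stood at -0.75 on the log2 scale for NaCl 3 h, at -0.62 for Trehalose 3 h and at -0.43 for Mannitol 3 h, so that falls at 3 h are partly common to all genes in these units.

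**Figure D3:**
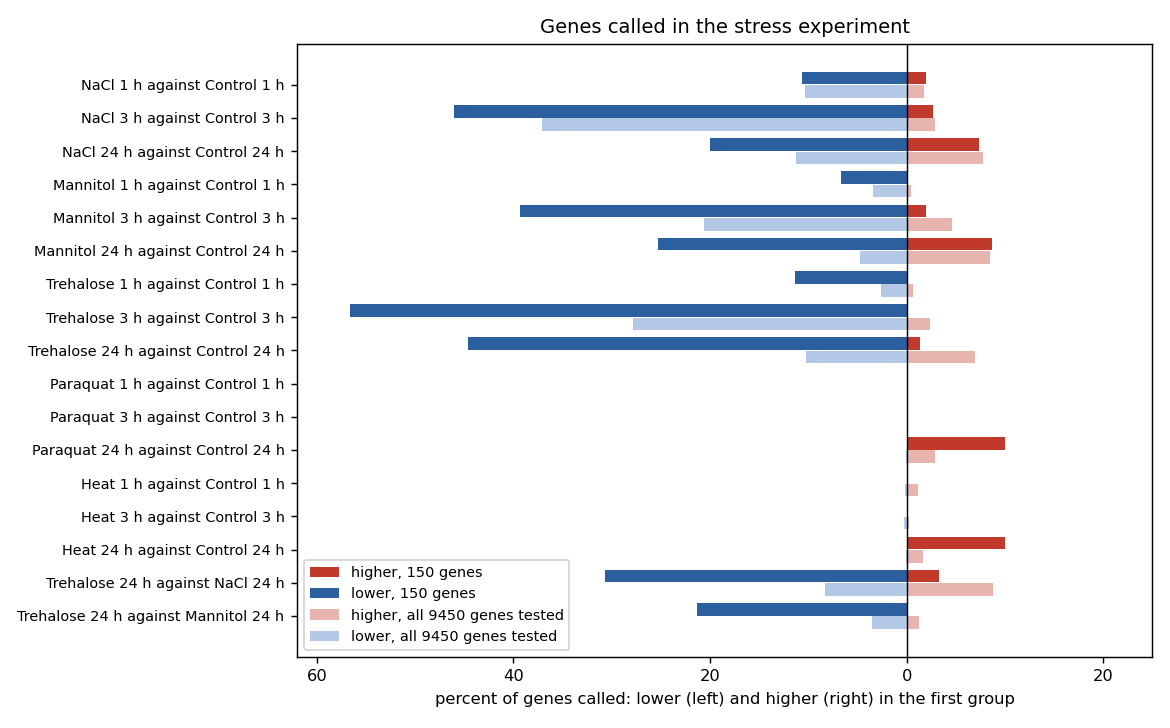
Percent of genes called lower (left, blue) and higher (right, red) in each of 17 comparisons of the stress experiment (n = 3 libraries per group), for the 150 genes (dark) and all 9450 genes tested (pale). The widest gap between the dark and pale bars is at Trehalose 24 h and 3 h, where 67 and 85 of the 150 genes fell.

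Many genes of the list fell under trehalose within a day and 2 rose. The list had been chosen partly for low levels in trehalose medium, with 120 of 150 genes more than 2 times lower at PreCondTre 24 h than at 0 h. The excess of falls below is thus not independent of the choice. At Trehalose 24 h 67 of the 150 genes fell (10.3% of all genes tested) and 2 rose (6.99%). The median of the list was -0.92 on the log2 scale, and that of all genes -0.13. At Trehalose 3 h limma called 85 falls (27.8%) and 0 rises (2.37%), with medians of -1.24 and -0.62. At an unadjusted p under 0.05 in either direction were 98 genes of the list and 6707 of all 9450. At Trehalose 1 h 17 genes fell (2.57%) and limma called 0 rises (0.677%). Those at an unadjusted p under 0.05 in either direction numbered 46, against 4178 of all 9450. The rises at 3 h numbered 1 without Control 3 h replicate 2 or Trehalose 3 h replicate 1 or 3 and 2 without Control 3 h replicate 3, and those at 24 h numbered 4 without replicate 1 of both groups. Of the 67 genes that fell at 24 h and the 85 that fell at 3 h, where another set of Control libraries was used, 61 were shared. The same overlap over all genes tested was not counted. When each library was scaled by its median ratio factor, which brings the median of all genes to 0.00 and -0.02, 64 genes fell at 24 h (8.02% of all genes tested) and 58 at 3 h (7.76%).

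The largest fall at 24 h was that of g943, at 79.0, 62.3 and 67.0 TPM in Control and 3.88, 3.67 and 4.82 TPM in Trehalose. It fell by 3.78 on the log2 scale (standard error 0.0949, adjusted p = 4.96e-30). Its log2 change was -1.42 at 1 h and -3.16 at 3 h. The gene g14213 was at 169, 163 and 167 TPM in Control 24 h and 16.3, 15.1 and 16.3 TPM in Trehalose 24 h, a log2 change of -3.31 (standard error 0.0998, adjusted p = 2.2e-27). Neither gene had libraries that overlapped, and both were lower in the trehalose of the time course as well, g943 going from 33.5, 30.3 and 36.2 TPM at PreCondTre 0 h to 3.55, 3.38 and 3.14 TPM at 24 h.

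The 2 genes that rose under trehalose were low in Control. Neither was among the 121 genes that kept their peak at Rehydration 12 or 24 h after median ratio scaling. The gene g11300 went from 0.21, 0.49 and 0.98 TPM in Control 24 h to 5.12, 4.04 and 3.41 TPM in Trehalose 24 h, a log2 change of 1.75 (standard error 0.283, adjusted p = 1.42e-06). The gene g8143 was at 0.45 and 0.86 TPM and listed at 0 in the third Control library, and it was at 3.32, 1.90 and 2.13 TPM in Trehalose 24 h, a log2 change of 1.29 (standard error 0.210, adjusted p = 1.68e-06). Both were also higher in the time course at PreCondTre 24 h than at 0 h, g11300 at 10.5, 6.27 and 6.32 TPM after being listed at 0 in 2 of 3 libraries and at 0.60 TPM in the other.

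Each gene's ratio at PreCondTre 24 h and its change at Trehalose 24 h come from separate libraries. Of the 150 genes 116 were below 0 on the log2 scale in both. The typical gene was also lower in both, at a median ratio of 0.870 (8783 genes) and a log2 change of -0.13 (9450 genes). The count over all genes was not made. Across the 150 genes Pearson's r was 0.41 and Spearman's rho 0.27, as a description without a test. The preconditioning values had helped to choose the genes through R, and most points lie in 1 quadrant.

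**Figure D4:**
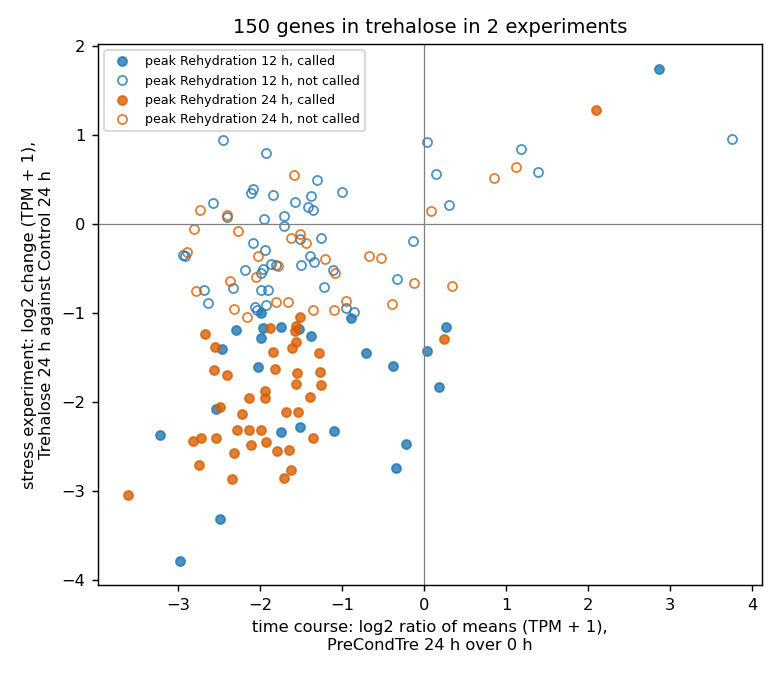
Each point is 1 of the 150 genes, with the log2 ratio of PreCondTre 24 h to 0 h (time course, TPM + 1) on the x axis and the log2 change of Trehalose 24 h against Control 24 h (stress experiment, n = 3 per group) on the y axis. Filled points were called in the stress experiment, colours give the peak time, and 116 points are below 0 on both axes.

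Mannitol and NaCl, the other osmolytes, lowered fewer of the genes at 24 h. At Mannitol 24 h 38 genes fell (4.76% of all genes tested) and 13 rose (8.46%), and at NaCl 24 h 30 fell (11.2%) and 11 rose (7.75%). The list's median was -0.05 under mannitol and -0.06 under NaCl, against -0.01 and -0.17 for all genes. At 3 h 59 genes fell under mannitol (20.6%) and 69 under NaCl (37.1%), while 3 and 4 rose (4.59% and 2.85%). At 1 h 10 genes fell under mannitol (3.39%) and limma called 0 rises (0.434%). There 45 genes of the list and 4745 of all 9450 had an unadjusted p under 0.05. Under NaCl at 1 h 16 fell (10.4%) and 3 rose (1.74%). With median ratio scaling 35 and 31 genes fell at 3 h (6.82% and 12.2% of all genes tested), and 15 and 7 rose (10.0% and 12.1%).

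Several of these counts moved with single libraries. At Mannitol 24 h 12 of the 13 genes that rose were among those that moved with g6133, against 8 of the 38 that fell and 49.0% of the list. The count of rises was 5 without Control 24 h replicate 2, 5 and 4 without Mannitol 24 h replicates 1 and 2, and 21 without Mannitol 24 h replicate 3, which was closest to Trehalose 24 h (mean r = 0.70). At NaCl 24 h the rises numbered 6 without Control 24 h replicate 2 and 6 without NaCl 24 h replicate 3. At Mannitol 3 h the 3 rises numbered 1 without Control 3 h replicate 1 or without Mannitol 3 h replicate 1 or 2, 7 without Control 3 h replicate 2 and 6 without Mannitol 3 h replicate 3. Falls at Mannitol 1 h numbered 19 without Mannitol 1 h replicate 1 and 6 without replicate 2 of both groups, and falls at NaCl 1 h 9 without NaCl 1 h replicate 2.

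The gene g9878 was lower at 1 h under each osmolyte. It was named for its falls in 5 comparisons, all of them under mannitol or trehalose. It was at 11.8, 11.3 and 10.2 TPM in Control 1 h, against 2.53, 1.40 and 2.76 TPM in NaCl 1 h, 2.28, 2.35 and 2.73 TPM in Mannitol 1 h and 1.37, 1.86 and 1.43 TPM in Trehalose 1 h. At 3 h it was at 18.9, 31.1 and 23.8 TPM in Control, 1.97, 1.00 and 0.29 TPM in Mannitol and 0.60, 0.45 and 0.59 TPM in Trehalose. The log2 changes at 3 h were -3.67 and -4.02 (standard error 0.207 for both, adjusted p = 1.41e-18 and 6.72e-20), and no library overlapped. In rehydrating cells it peaked sharply at 12 h, at 37.8, 23.4 and 32.5 TPM, and was at 4.20, 6.74 and 6.05 TPM at 72 h.

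At Mannitol 24 h g943 was at 11.6, 9.80 and 9.40 TPM, a log2 change of -2.64 (standard error 0.0949, adjusted p = 3.10e-24). The largest rise was that of g7900, which was at 1.71, 1.02 and 1.90 TPM in Control 24 h and 16.3, 19.2 and 8.74 TPM in Mannitol 24 h. Its log2 change was 2.58 (standard error 0.652, adjusted p = 0.00106), and its deviations from group means went with those of g6133 (r = 0.96). The gene g7285 rose by 2.23 (standard error 0.645, adjusted p = 0.00401). At Mannitol 3 h g10031 rose from 4.53, 8.04 and 8.39 TPM to 17.7, 20.9 and 20.1 TPM (log2 change 1.40, adjusted p = 4.19e-06), and its groups did not overlap.

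Under NaCl g12268 rose at every time. It was at 3.07, 2.06 and 2.32 TPM in Control 1 h and 9.82, 9.09 and 10.9 TPM in NaCl 1 h. At 24 h it was at 2.86, 2.61 and 3.00 TPM in Control and 15.3, 14.9 and 13.8 TPM in NaCl. The log2 changes were 1.66, 2.28 and 2.03 at 1, 3 and 24 h (standard error 0.173 each, adjusted p = 1.63e-10, 5.41e-15 and 2.91e-13). At 24 h g4882 rose more, from 0.82, 0.66 and 0.59 TPM to 7.13, 6.18 and 8.69 TPM (log2 change 2.29, standard error 0.251, adjusted p = 2.23e-10).

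The gene g433 was listed at 0 in all 3 libraries of NaCl 3 h and all 3 of NaCl 24 h, so no fold is given. It was at 39.5, 53.0 and 32.3 TPM in Control 3 h and at 17.2, 5.77 and 12.9 TPM in Control 24 h. It was also listed at 0 in single libraries of the time course, 1 at PreCondTre 0 h, 2 at Rehydration 0 h and 1 at Rehydration 3 h. A value of 0 may be a failed estimate in this table, and depth is not known. The gene g78 was at 17.3, 15.7 and 17.8 TPM in Control 24 h and 2.38, 3.75 and 2.65 TPM in NaCl 24 h, a log2 change of -2.21 (standard error 0.185, adjusted p = 2e-13).

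Trehalose was then set directly against the other osmolytes at 24 h. It was lower than NaCl in 46 genes (8.34% of all genes tested) and higher in 5 (8.78%), and lower than mannitol in 32 (3.49%). Against mannitol limma called 0 genes higher (1.27%). In either direction 83 of the list and 3832 of all 9450 had an unadjusted p under 0.05. The medians of the list were -0.85 and -0.75 on the log2 scale, and those of all genes 0.02 and -0.14. The comparison with mannitol rested on its libraries: 19 genes were lower without Mannitol 24 h replicate 1, 55 without Mannitol 24 h replicate 3 and 21 without Trehalose 24 h replicate 2. Of the genes lower than under NaCl, 25 of 46 were among those that moved with g6133, as were 19 of the 32 lower than under mannitol. These counts stand against 49.0% of the other genes of the list. Of the falls against Control, 17 of 67 at Trehalose 24 h and 33 of 85 at Trehalose 3 h were among them. The 5 genes higher than under NaCl numbered 3 without NaCl 24 h replicate 1 or without Trehalose 24 h replicate 1.

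The gene g7403 moved in opposite directions under trehalose and NaCl. It was at 69.9, 88.6 and 80.8 TPM in Control 24 h, 177, 196 and 178 TPM in NaCl 24 h and 28.5, 20.5 and 18.3 TPM in Trehalose 24 h, with no overlap. By limma against Control it rose under NaCl (adjusted p = 6.69e-09, higher in 3 of 3 libraries) and fell by 1.80 on the log2 scale under trehalose (adjusted p = 2.13e-13), and trehalose against NaCl gave -3.00 (standard error 0.151, adjusted p = 6.4e-20). The gene g16866 was at 6.17, 7.10 and 8.61 TPM in Trehalose 24 h and 1.56, 1.89 and 1.56 TPM in NaCl 24 h, a difference of 1.63 (standard error 0.170, adjusted p = 1.13e-10). In the time course it was nearly gone at the end, with 0.27, 0.46 and 0.47 TPM at Rehydration 72 h after 17.3, 17.6 and 25.6 TPM at 12 h.

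Against mannitol the largest difference was that of g5499. It was at 8.76, 7.95 and 19.3 TPM in Trehalose 24 h and 71.2, 87.6 and 29.8 TPM in Mannitol 24 h, a log2 difference of -2.26 (standard error 0.726, adjusted p = 0.0153). The libraries did not overlap but were uneven, and its deviations went with those of g6133 (r = 0.97). Its call was lost without Mannitol 24 h replicate 1 or 2 and without Trehalose 24 h replicate 1 or 2.

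**Figure D5:**
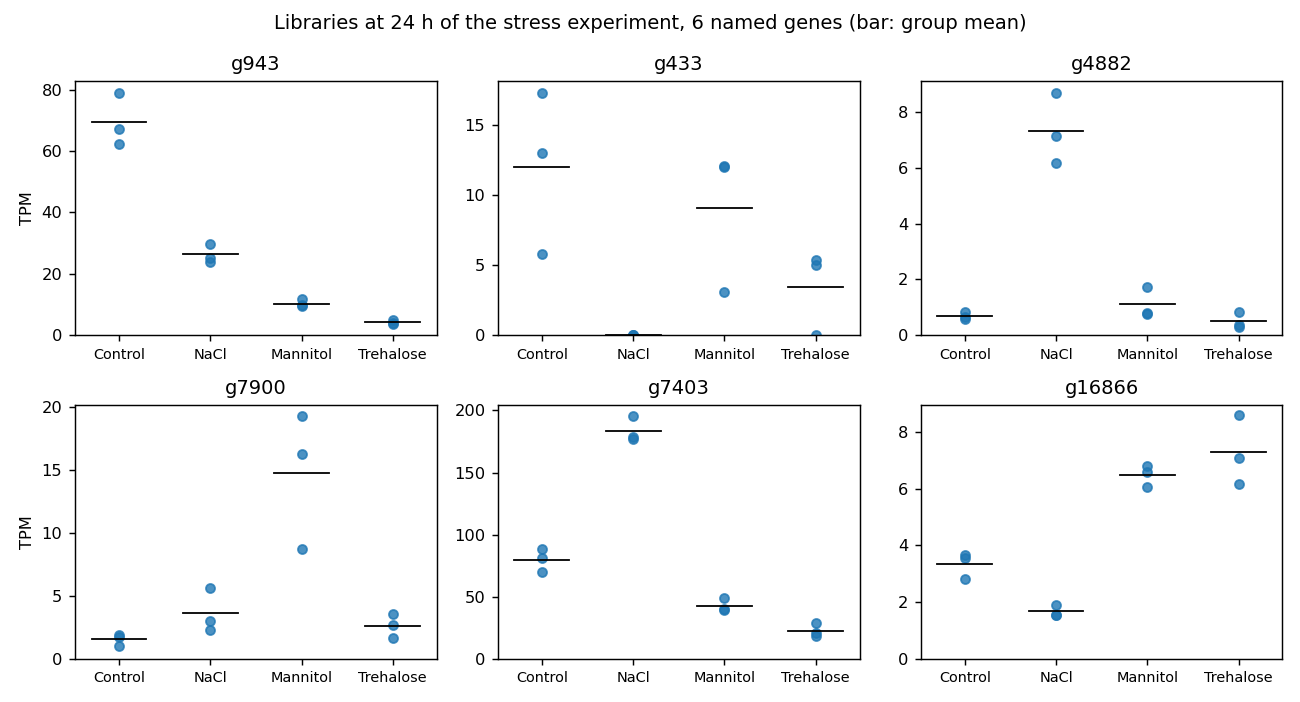
TPM in each library at 24 h of Control, NaCl, Mannitol and Trehalose (points) with the group mean (bar, n = 3) for 6 genes with large changes; each panel starts at 0 on its own scale. g943 is lowest under Trehalose, g7403 is high under NaCl and low under Trehalose, and g433 is listed at 0 in all 3 NaCl libraries.

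The falls under osmolytes were counted apart for the genes that peaked at 24 h and at 12 h of rehydration. Of 75 genes each, 43 and 24 fell at Trehalose 24 h (10.3% of all genes tested), 27 and 11 at Mannitol 24 h (4.76%) and 20 and 10 at NaCl 24 h (11.2%). Rises numbered 2 and 11 at Mannitol 24 h (8.46%) and 2 and 9 at NaCl 24 h (7.75%). The difference between the peak times was not tested, and the 3 osmolytes share the Control 24 h libraries. For comparison, 150 genes chosen in the same way with the peak at Rehydration 0 or 3 h had 58 rises and 4 falls at Trehalose 24 h (6.99% and 10.3% of all genes tested), and 150 with the peak at Rehydration 72 h had 7 rises and 48 falls; these differences between lists were likewise not tested.

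Paraquat, which drives the formation of superoxide in cells, and heat shock called few of the genes. No gene of the list was called by limma at Paraquat 1 or 3 h (0.00% of all genes tested). There 24 and 3 of its genes had an unadjusted p under 0.05, against 1456 and 472 of all 9450. Limma also called none at Heat 3 h, where 0.190% of all genes rose and 0.296% fell. At an unadjusted p under 0.05 were 12 of the list and 1309 of all 9450. Heat 1 h called none (1.15% of all genes rose and 0.127% fell), but that contrast was used to choose the genes. At 24 h 15 genes rose after paraquat (2.84%) and 15 after heat (1.70%). Limma called 0 falls in both (0.0635% and 0.0847% of all genes tested). At an unadjusted p under 0.05 in either direction were 99 and 103 genes, against 4468 and 4081 of all 9450. The list's medians were 0.70 and 0.80 against 0.29 and 0.27 for all genes.

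These rises at 24 h rested on single libraries. After paraquat the count was 56 without Paraquat 24 h replicate 1, 0 without either of its other replicates and 0 without Control 24 h replicate 2 or 3. After heat it was 66 without Heat 24 h replicate 3, 0 and 1 without Heat 24 h replicates 1 and 2, and 1 and 2 without Control 24 h replicates 2 and 3. Of the genes that rose, 14 of 15 after paraquat and 12 of 15 after heat were among those that moved with g6133, against 49.0% of the list. With median ratio scaling the counts were 0 and 5 (0 and 0.487% of all genes tested).

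The genes named for these rises show the same unevenness. After paraquat g4409 was at 3.58, 12.5 and 10.6 TPM against 1.66, 0.25 and 0.98 TPM in Control 24 h, a log2 change of 2.26 (standard error 0.799, adjusted p = 0.0476). After heat g3572 was at 15.5, 16.2 and 6.04 TPM against 3.95, 1.19 and 2.54 TPM, a log2 change of 1.90 (standard error 0.578, adjusted p = 0.0287). In both, the library closest to Control 24 h was the lowest of the treated group, although the groups did not overlap.

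Most genes had few transcripts. The list had a median of 2 transcripts per gene, and 55 genes (36.7%) had 1, against 26.0% of the 8783 genes. In the 95 genes with more, the leading transcript was the same at the peak and at PreCondTre 24 h in 79 (83.2%, against 77.2%). In g16422 the leading transcript held 67.1% of the gene's TPM at PreCondTre 24 h and 89.2% at the peak.

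A few members had consecutive numbers, which may or may not mean that they lie side by side, since no coordinates were used. The run g4880, g4881 and g4882 had unlike levels, with peaks of 32.4, 489.7 and 10.7 TPM on average, and unlike ties to g6133 in the stress libraries (r = 0.91, 0.93 and 0.53). The run g15043, g15044 and g15045 was alike, with all 3 at their peak at Rehydration 12 h and r values of 0.98, 0.86 and 0.91. The genes g6130 and g6133 deviated from their group means nearly in parallel. Their r was 0.97 over the 54 stress libraries and 0.96 over the 30 time-course libraries, and whether they share reads was not tested.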

How the data were processed

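RNA-seq of Pv11 cells was analysed from 1 table of TPM per transcript for 84 libraries (66333 transcripts, 18248 genes). The authors mapped reads to the coding sequences of their gene set with Bowtie2 and RSEM and deposited TPM. Each library therefore sums to the same total, depth is unknown and no counting intervals are given. Transcripts were summed per gene with Python 3.11.15 and pandas 2.3.3. The members and lists were chosen with earlier results of these data known.

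Stress groups (3 libraries each) were compared by limma 3.58.1 in R 4.3.3 on log2 (TPM + 1), with all 54 stress libraries in 1 fit, a variance trend and Benjamini-Hochberg adjustment over the 9450 genes with a mean above 1 TPM. A fold change on this scale understates the change of low genes. The study's own count-based tests do not suit TPM. The fit was tested on simulated data with noise drawn independently for each gene and library, so deviations that genes share were not covered. Time-course values were not tested.

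Genes to be named were the 10 with the largest R, the 5 with the highest peak, in each comparison the largest rise and fall among called genes whose groups do not overlap (3 of each for an osmolyte against Control at 24 h), the genes at the edge of the list, members in runs of 3 consecutive numbers and any member the study names, of which there were 0. The file does not pair identifiers with names, and 0 of them matched the gene table at hand, so at most 2 rises and 2 falls are printed per comparison and planned lists of gene functions were not used.

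Alternatives were a pseudocount of 0.1, median ratio scaling over the 9254 genes above 0 in every library (factors from 0.592 to 1.71), no trend, all genes above 0, a fit of the 2 groups compared, a replicate block, every gene of the rule without the limit at 150, group medians, and leaving out each replicate number. Leaving out single libraries, the values without 2 preconditioning libraries and the correlation with g6133 were chosen after seeing the data. Deviations of same-numbered libraries correlated above 0.1 in every pair in 2 comparisons only. These were Paraquat 1 h with Control 1 h (0.150 to 0.168) and Trehalose 24 h with NaCl 24 h (0.161 to 0.487). In others they went opposite ways, as in NaCl 1 h with Control 1 h (mean r = -0.434). No label pairs the libraries, so pairing by number was not established.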

Additional observations from a re-analysis of the deposited data

Results flagged for a closer look

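These results are differences between osmolytes that were tested directly, as trehalose against another osmolyte at 24 h. The genes were chosen partly for low levels in trehalose medium, so lower levels under trehalose here are not independent of the choice. Against NaCl 5 genes of the list were higher and 46 lower under trehalose, where 8.78% and 8.34% of all genes tested were. Of 150 genes chosen in the same way with the peak at Rehydration 72 h, 60 were lower, and the lists were not tested against each other. The largest differences were 1.63 on the log2 scale for g16866 and -3.00 for g7403, and in both all 3 libraries of 1 group lay above the 3 of the other. Against mannitol 32 genes were lower under trehalose (3.49% of all genes tested), with 17 to 55 when a library or replicate number was left out, and the largest difference was -2.26 for g5499.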

How the results depend on the processing

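Chosen again by the same rule, the list kept 119 of its 150 genes after median ratio scaling, 121 to 135 without a replicate number, 128 on group medians and 103 with a pseudocount of 0.1. Its median R was 12.2, and 6.65, 11.9 to 12.6, 12.8 and 20.0 in these cases, and 64 to 83 and 67 to 86 genes peaked at 12 and 24 h without a replicate number. Median ratio scaling moved the median of all genes at NaCl 3 h from -0.75 to 0.00, and its counts that moved by over 1.5 times were falls of 4, 3 and 10 at 1 h of NaCl, mannitol and trehalose, 7 rises and 31 falls at NaCl 3 h, 15 rises and 35 falls at Mannitol 3 h, 3 rises at Trehalose 3 h, rises of 18, 5, 0 and 5 at NaCl, Trehalose, Paraquat and Heat 24 h, and 1 gene higher under trehalose than mannitol. The pseudocount of 0.1 gave rises of 5, 2 and 4 at Mannitol 3 h, Trehalose 3 h and Trehalose 24 h, 26 at Paraquat 24 h, 3 at Heat 1 h and 25 at Heat 24 h, and 50 genes lower under trehalose than mannitol. Testing all genes above 0 gave 0 and 4 rises at Paraquat and Heat 24 h. A fit of the 2 groups compared gave rises of 20 at NaCl 24 h, 1 at Mannitol 3 h, 48 at Paraquat 24 h, 1 at Heat 1 h and 0 at Heat 24 h, with 1 fall there. The replicate block gave 8 rises at Paraquat 24 h, where deviations of same-numbered libraries did not go together (mean r = -0.162). In the 2 comparisons with every pair above 0.1 the block left 0 calls at Paraquat 1 h. Under trehalose against NaCl it left 5 higher and 46 lower, and it moved no other count by over 1.5 times. Without a variance trend no count moved by over 1.5 times. Without the limit at 150, rises and falls among the 1999 genes were 22 and 283, 17 and 1037, and 83 and 338 at NaCl 1, 3 and 24 h, 2 and 129, 26 and 742, and 101 and 210 under mannitol, and 130 falls, 4 and 1038, and 38 and 438 under trehalose. Rises were 131 at Paraquat 24 h and 1, 1 and 79 at Heat 1, 3 and 24 h, while 88 and 230 genes differed for trehalose against NaCl and 2 and 120 against mannitol. Leaving out a replicate number or a library gave 3 to 4 rises and 9 to 23 falls at NaCl 1 h, 4 rises and 47 to 93 falls at NaCl 3 h, 6 to 10 and 25 to 36 at NaCl 24 h, 0 and 6 to 19, 1 to 7 and 44 to 71, and 4 to 21 and 32 to 44 under mannitol, and 0 and 14 to 22, 0 to 2 and 62 to 100, and 2 to 4 and 55 to 72 under trehalose. It gave 0 to 56 rises at Paraquat 24 h, 0 to 2 at Heat 1 h, 0 to 1 rises and 0 to 4 falls at Heat 3 h, 0 to 66 rises at Heat 24 h, 2 to 5 higher and 36 to 58 lower for trehalose against NaCl and 0 to 1 and 17 to 55 against mannitol. No named gene changed direction under any alternative, and g9625, g2696, g4409, g3572 and g5499 lost their calls in at least 1. The cause of these shifts was not tested. The 3 libraries per group and the unknown depth limit what small counts of calls can show.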
